A study of Mus musculus with 24 samples.

Results

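The comparison described here is the change in cisplatin adduct repair in mouse liver from zeitgeber time 12 (ZT12, lights off) to ZT16, 4 h into the night. It rests on 4 of the 24 libraries of the series, 2 at each time, which were chosen by their tissue and time labels. All animals were wild type C57BL/6J females, 6 months old, kept on a schedule of 12 h light and 12 h dark for at least 2 weeks. Each received cisplatin intraperitoneally at 10 mg/kg, and tissue was taken 2 h later. There were therefore no untreated animals in these groups, and both times carry the same drug exposure. No label ties a library to an animal, so replicates could be technical, and the p-values below cover only the spread from library to library. The treatment text names cisplatin, while the extraction text names antibodies for other lesions in the step that isolates damaged oligomers.

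Cisplatin joins neighbouring purines in DNA, and nucleotide excision repair removes these adducts by cutting out a short single-stranded oligomer. XR-seq captures these oligomers with antibodies to the repair factor TFIIH and to the lesion, and sequences them, so that each read is a repair event on a known strand. On the transcribed strand of a gene (TS), repair is recruited by stalled RNA polymerase, and reads there follow transcription. The non-transcribed strand (NTS) is repaired by the global pathway. In liver, the circadian clock is a feedback loop in which the activators BMAL1 (encoded by Arntl), CLOCK and NPAS2 drive their own repressors, the PER, CRY and REV-ERB proteins, while REV-ERB and ROR proteins set the phase of Arntl and Npas2.

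The 4 libraries held 11175116 to 18524899 TS reads and 1593088 to 2690302 NTS reads in all gene entries, with or without a symbol. The TS share of these reads was 87.2% ± 0.48 (SD, n = 2) at ZT12 and 87.9% ± 0.14 (SD, n = 2) at ZT16. All 20 hepatocyte markers were detected. Their summed TS reads were 1444 and 1477 CPM at ZT12 and 1337 and 1271 CPM at ZT16, and 441 to 537 CPM in the kidney libraries of the same times. CPM here are TS reads of a gene scaled to the TS total of its library, and for single genes below the same after edgeR's TMM scaling. The 12 kidney tubule markers summed to 81.1 to 86.7 CPM in the 4 liver libraries and 692 to 772 CPM in kidney. Most of the liver sum lay in 1 gene, Slc13a3, with 54.3 and 47.7 CPM at ZT12 and 60 and 56.5 CPM at ZT16. The 2 liver libraries at ZT0 stood furthest apart of any pair, with a median absolute log2 difference of 0.24 per gene against 0.09 to 0.11 at the other 5 times. Endothelial markers summed to 760 CPM in the first ZT0 library and 265 CPM in the second. The ZT0 libraries are not part of the contrast, but both enter the estimate of the spread.

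Repair on the transcribed strand rose from ZT12 to ZT16 at a small set of genes led by the clock activators Npas2 and Arntl, and fell at 3 genes, Mettl24, Ngef and Fgfr2. Of 18655 gene entries tested, 49 were called (0.263%), 46 higher at ZT16 (0.247%) and 3 lower (0.0161%). Called means a Benjamini-Hochberg adjusted p under 0.05 in edgeR's quasi-likelihood test, fitted to all 12 liver libraries. The 46 higher entries were 44 genes, since Slx4ip is listed 3 times. DESeq2 called 281 (1.51%), 236 of them higher (1.27%) and 45 lower (0.241%), with all 49 among them. Over all entries tested the median log2 fold change was 6.48e-05, 50.02% lay above 0, and 2298 had an unadjusted p under 0.05. Reads come from bulk tissue, so that more cells of a type and more repair per cell cannot be told apart.

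The promoters of 4 genes are shown because these genes have the largest fold change each way in the clock lists and among called genes outside them, and that of Arntl was added after its values were seen. Each runs from 250 bases before to 50 bases after the RefSeq start site, 5′ to 3′ on the gene's own strand (GRCm38.p6, the mm10 assembly). The motifs searched on both strands were the E-box CACGTG bound by CLOCK and BMAL1, the D-box TTATGTAA or TTACGTAA bound by DBP and its relatives, and the core TAGGTCA of the ROR element. Capitals mark a match. The E-box was held by 7.15% of the 32851 promoters of this length, the D-box by 1.06% and the ROR core by 2.61%. The clock activator Npas2 (chr1:39194022-39194321, + strand) had the largest rise of the clock genes, and Arntl (chr7:113207215-113207514, + strand) was the other clock gene called. The clock repressor Bhlhe41 (chr6:145865371-145865670, - strand) had the most negative fold change of the clock genes. Among genes called outside the clock, Pask (chr1:93342739-93343038, - strand) had the largest rise and Mettl24 (chr10:40683032-40683331, + strand) the largest fall.
Npas2: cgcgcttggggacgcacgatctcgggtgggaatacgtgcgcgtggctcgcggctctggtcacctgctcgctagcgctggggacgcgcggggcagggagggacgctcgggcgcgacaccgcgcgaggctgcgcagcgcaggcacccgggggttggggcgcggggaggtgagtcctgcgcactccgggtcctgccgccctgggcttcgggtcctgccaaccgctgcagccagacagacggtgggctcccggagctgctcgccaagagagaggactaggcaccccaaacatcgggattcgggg
Arntl: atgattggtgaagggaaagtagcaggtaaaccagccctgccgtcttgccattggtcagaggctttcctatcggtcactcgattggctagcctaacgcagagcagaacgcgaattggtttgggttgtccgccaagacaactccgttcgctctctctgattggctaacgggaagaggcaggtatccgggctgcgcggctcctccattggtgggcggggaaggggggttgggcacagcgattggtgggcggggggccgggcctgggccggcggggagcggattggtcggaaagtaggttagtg
Bhlhe41: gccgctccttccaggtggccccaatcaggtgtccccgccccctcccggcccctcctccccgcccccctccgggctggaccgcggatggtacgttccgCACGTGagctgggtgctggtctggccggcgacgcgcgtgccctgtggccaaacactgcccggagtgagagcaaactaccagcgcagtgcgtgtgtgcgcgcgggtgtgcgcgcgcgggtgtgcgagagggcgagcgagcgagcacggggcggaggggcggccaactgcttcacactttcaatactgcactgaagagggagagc
Pask: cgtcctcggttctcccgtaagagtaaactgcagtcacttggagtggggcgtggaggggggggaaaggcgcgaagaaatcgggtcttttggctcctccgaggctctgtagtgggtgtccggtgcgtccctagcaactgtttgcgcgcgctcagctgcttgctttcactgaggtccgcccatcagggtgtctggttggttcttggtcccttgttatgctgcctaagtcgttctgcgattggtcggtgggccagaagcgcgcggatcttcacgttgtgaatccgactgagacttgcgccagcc
Mettl24: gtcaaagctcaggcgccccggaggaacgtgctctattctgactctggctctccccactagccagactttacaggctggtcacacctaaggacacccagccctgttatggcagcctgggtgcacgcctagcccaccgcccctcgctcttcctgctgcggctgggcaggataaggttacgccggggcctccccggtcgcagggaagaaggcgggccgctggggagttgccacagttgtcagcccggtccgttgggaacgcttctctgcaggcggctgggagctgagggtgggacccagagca
The only match in these 5 windows was the E-box of Bhlhe41, whose first base lies at -153 from the start site. These exact letters are not in the other 4 windows. The search did not cover variant forms of these motifs, so such sites may lie within the windows shown, that of Arntl included. It also says nothing about sites elsewhere in those genes.

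Npas2 (chr1:39194272-39363240, + strand), the partner of BMAL1 that can stand in for CLOCK, had 13.4 and 13.9 CPM on the transcribed strand at ZT12 and 58.7 and 41.7 CPM at ZT16. Both ZT16 libraries lay above both ZT12 libraries. The rise was 3.67-fold (log2 1.87 ± 0.17 SE, edgeR adjusted p = 0.00273), from 144 and 242 reads to 1022 and 750 reads. The ZT16 level was still far below that of ZT20, where Npas2 reached 473 ± 53.5 CPM (SD, n = 2). The hours from ZT12 to ZT16 thus hold the start of its climb from its lowest mean of the 6 times.

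Arntl (chr7:113207465-113314126, + strand), the core activator BMAL1, had 105 and 137 CPM at ZT12 and 411 and 419 CPM at ZT16. It rose 3.43-fold (log2 1.78 ± 0.20 SE, edgeR adjusted p = 0.00698), with no overlap between the times. Unlike Npas2, Arntl was at ZT16 already close to its later values, 405 ± 3.32 CPM at ZT20 and 420 ± 5.42 CPM at ZT0 (SD, n = 2 each). Clock, the third activator, had 130 and 132 CPM at ZT12 and 188 and 173 CPM at ZT16. Its libraries did not overlap, but its log2 fold change of 0.46 ± 0.09 SE had an edgeR adjusted p of 0.0642.

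The other 4 members of the activator list, which also holds genes that peak with the activators or set their phase, were not called. Cry1, a repressor of late phase, had 112 and 131 CPM at ZT12 and 130 and 124 CPM at ZT16, so that the times overlapped (log2 fold change 0.07 ± 0.12). Nfil3, a repressor at D-boxes, had 77.2 and 71.6 CPM and then 56.1 and 56.6 CPM (log2 -0.40 ± 0.10, edgeR adjusted p = 0.13). The nuclear receptor gene Rora, whose product drives Arntl, was also lower in both ZT16 libraries, with a log2 fold change of -0.22 ± 0.09. The list as a whole had 2 of 7 members called, against 0.263% of all entries, with a median log2 fold change of 0.07. Both ZT16 libraries lay above both ZT12 libraries in 3 members (25.8% of all entries) and below them in 3 (25.6% of all entries).

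**Figure D1:**
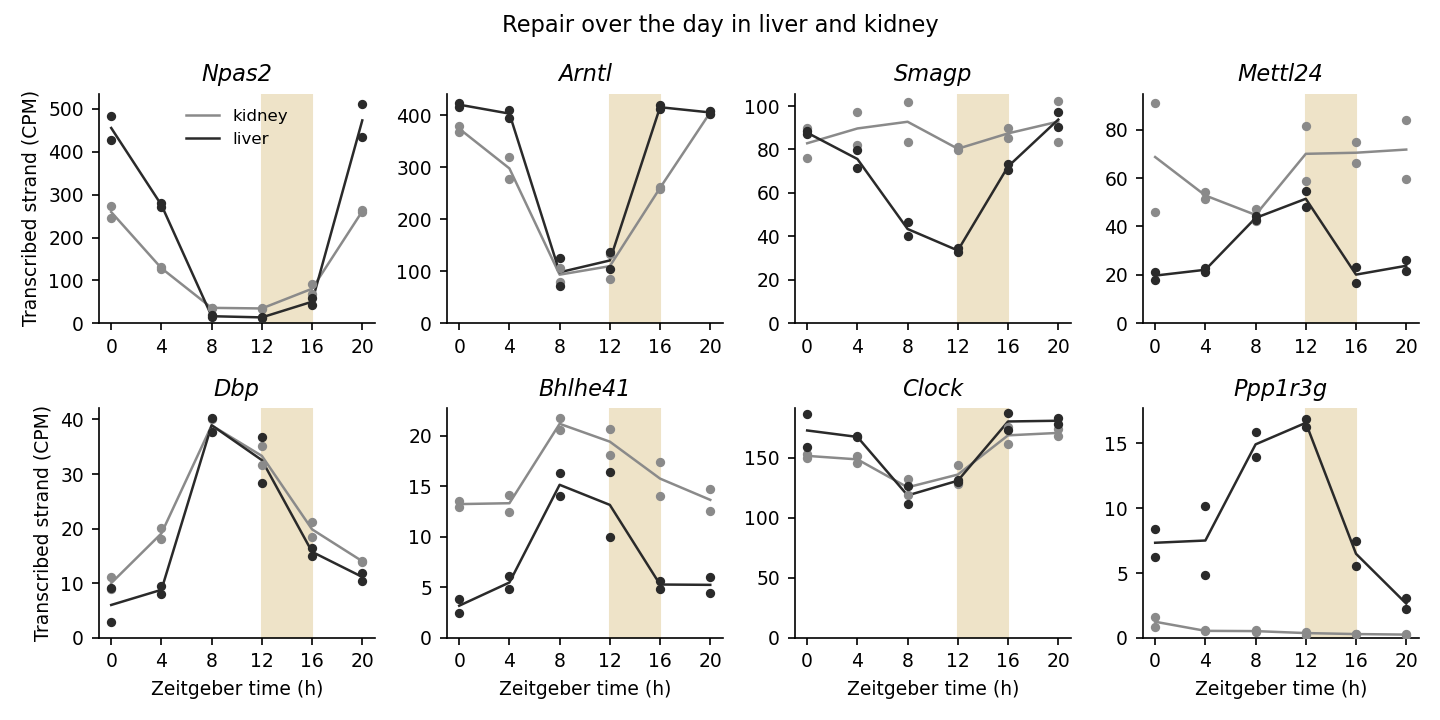
Transcribed-strand reads (CPM, linear axes from 0) of 8 genes over the 6 zeitgeber times in liver (black) and kidney (grey), with points for libraries and lines through the means of 2; the band marks ZT12 to ZT16. In liver Arntl completes its climb within the band (121 to 415 CPM), Npas2 begins its climb (13.7 to 50.2 CPM), and Mettl24, Dbp, Bhlhe41 and Ppp1r3g are at lower levels at ZT16.

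Repressors and output genes of the loop lay mostly below 0, but none of them passed the test. Of 13 repressor and E-box or D-box genes, 12 had a log2 fold change below 0, and the median was -0.21. In 11 of them both ZT16 libraries lay below both ZT12 libraries, against 25.6% of all entries. None was called by edgeR, and DESeq2 called 2. In edgeR 5 had an unadjusted p under 0.05, all of them lower, against 5.57% of all entries lower with such a p. Bhlhe41, a repressor that competes at E-boxes, had 16.4 and 9.94 CPM at ZT12 and 4.88 and 5.68 CPM at ZT16 (log2 -1.30 ± 0.28, edgeR adjusted p = 0.086). Dbp, the D-box activator that is a direct output of the loop, had 36.8 and 28.3 CPM and then 16.4 and 15.1 CPM (log2 -1.04 ± 0.32, edgeR adjusted p = 0.222). Dbp overlaps Sphk2 on the opposite strand. In both genes the times did not overlap, and the highest mean of the 6 times was at ZT8.

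The remaining genes of this list had fold changes closer to 0. Nr1d1, which encodes REV-ERBα, had 62.6 and 45.1 CPM at ZT12 and 38.7 and 41 CPM at ZT16 (log2 -0.43 ± 0.17), and its relative Nr1d2 had a log2 fold change of -0.18 ± 0.14. Nr1d1 overlaps Thra on the opposite strand, so its strands carry reads of both genes. The period genes Per1, Per2 and Per3 had log2 fold changes of -0.19 ± 0.11, -0.19 ± 0.17 and -0.23 ± 0.13. The values of Cry2 (-0.21 ± 0.09), Tef (-0.32 ± 0.09) and Ciart (-0.48 ± 0.23) were of the same sign, and that of the deubiquitinase gene Usp2 was -0.08 ± 0.12. Hlf (-0.01 ± 0.09) and Bhlhe40 (0.10 ± 0.13) had libraries that overlapped between the times. Cry2, Ciart and Bhlhe40 overlap other genes on the opposite strand.

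When both ZT0 libraries were left out, an alternative chosen after seeing the data, more clock genes passed. The edgeR test then called 715 of 18489 entries (3.87%), 521 higher (2.82%) and 194 lower (1.05%), among them all 49 of the fit to 12 libraries. Clock joined Npas2 and Arntl on the higher side (log2 0.46 ± 0.07, edgeR adjusted p = 0.0048). On the lower side Dbp (adjusted p = 0.00275), Bhlhe41 (0.0133), Tef (0.0182) and Nfil3 (0.0211) were among those called by edgeR. The biological coefficient of variation, the replicate spread that edgeR estimates, was 0.117 over all liver libraries and 0.0704 without ZT0. With only the 4 libraries of ZT12 and ZT16, edgeR called 885 of 18058 entries (4.9%), 651 higher (3.61%) and 234 lower (1.3%).

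Outside the clock, the largest rises among called genes were at genes of varied function. Pask, which encodes a nutrient-sensing kinase with a PAS domain, had 7.63 and 7.59 CPM at ZT12 and 16.6 and 17.2 CPM at ZT16. It rose 2.22-fold (log2 1.15 ± 0.16 SE, edgeR adjusted p = 0.0193), and its replicates were nearly equal at each time. Smagp, which encodes a small membrane protein of cell junctions, had 32.6 and 34.4 CPM and then 73.5 and 70.8 CPM. Its rise of 2.15-fold (log2 1.10 ± 0.10, edgeR adjusted p = 0.00273) came with replicates that lay close together at both times. Zfp454, a zinc finger gene with few reads, had 7.26 and 9.02 CPM and then 18.9 and 16.2 CPM (log2 1.10 ± 0.18, edgeR adjusted p = 0.0443).

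The next largest rises were at genes of other kinds. Asap2, which encodes an activator of the GTPase activity of ARF proteins, had 157 CPM in both ZT12 libraries and 324 and 313 CPM at ZT16 (log2 1.02 ± 0.11), and it overlaps Itgb1bp1 on the opposite strand. Map4k4, a stress-activated kinase gene, had 132 and 165 CPM and then 292 and 282 CPM (log2 0.95 ± 0.12). Gas7, which encodes an actin-binding protein, had 44 and 35.6 CPM and then 68.1 and 79.5 CPM (log2 0.90 ± 0.13). Libraries without overlap between the times were a condition for naming these genes. The ubiquitin ligase genes Rnf144a and Dtx4 had log2 fold changes of 0.99 ± 0.12 and 0.97 ± 0.14, and the F-box gene Fbxl19, whose product binds unmethylated CpG islands, 0.88 ± 0.13.

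Dnmt3b, a de novo DNA methyltransferase gene, had 36.3 and 39.9 CPM at ZT12 and 67.8 and 74.9 CPM at ZT16 (log2 0.90 ± 0.10, edgeR adjusted p = 0.00698). The next genes are outside the naming rule and were chosen after their values were seen. Smarcal1, which encodes an annealing helicase that remodels stalled replication forks, had 93.7 and 88.6 CPM and then 125 and 120 CPM (log2 0.43 ± 0.07). Slx4ip, whose product binds the SLX4 nuclease scaffold, had log2 fold changes of 0.46 ± 0.08 in each of its 3 overlapping entries. Cep290 and Rpgrip1l, both of the transition zone of the cilium, had log2 fold changes of 0.77 ± 0.13 and 0.81 ± 0.11.

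The 3 falls were at genes with their highest mean at ZT12. Mettl24, a gene of the methyltransferase-like family, had 54.7 and 48.1 CPM at ZT12 and 23.4 and 16.7 CPM at ZT16. It fell by 1.35 on the log2 scale (SE 0.16, edgeR adjusted p = 0.00904), a 2.56-fold difference. Ngef, which encodes an exchange factor for small GTPases, had 334 and 291 CPM and then 223 and 206 CPM (log2 -0.54 ± 0.08, edgeR adjusted p = 0.0278). Fgfr2, a growth factor receptor gene, had 174 and 168 CPM and then 124 and 129 CPM (log2 -0.43 ± 0.07, edgeR adjusted p = 0.0463). None of the 3 had libraries that overlapped between the times, which was a condition for naming them.

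**Figure D2:**
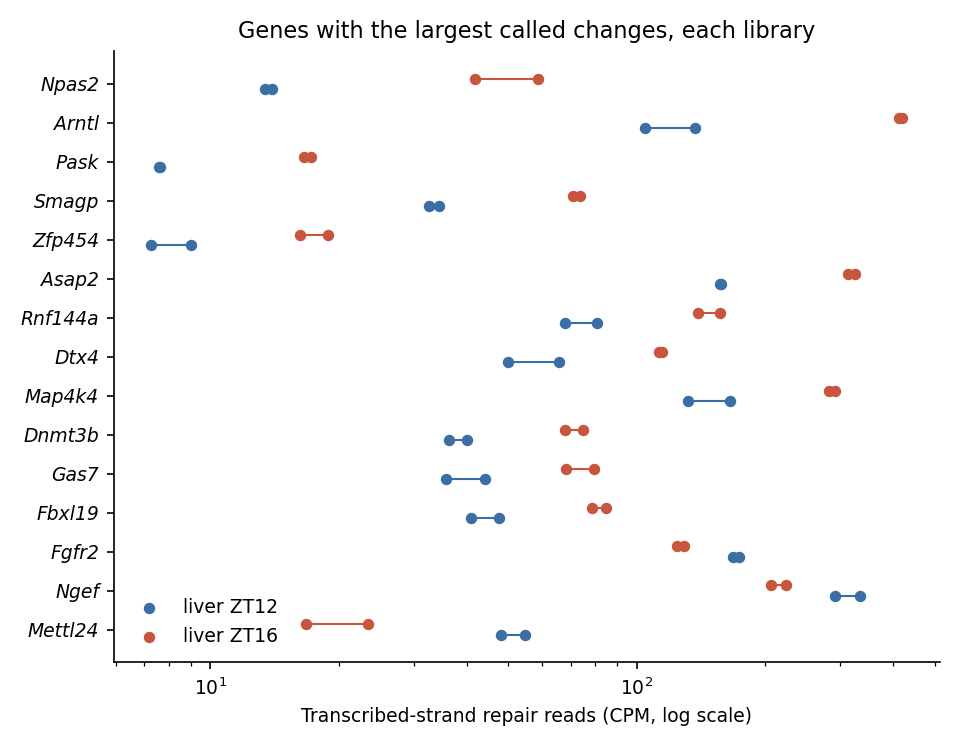
Transcribed-strand reads (CPM, log axis) of the 12 largest called rises and the 3 called falls in liver, with 1 point per library, blue for ZT12 and red for ZT16, and a line joining the 2 libraries of a time. Libraries without overlap between the times were a condition for being shown. Npas2 has the widest gap, from 13.4 and 13.9 to 41.7 and 58.7 CPM.

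The levels of the 44 risen genes at the other 4 times, which the contrast did not use, were mostly highest at ZT20. Their mean over the 2 libraries was highest at ZT20 in 35 genes, at ZT16 in 6, at ZT0 in 2 and at ZT4 in 1. Among all entries tested, 23.0% were highest at ZT20. The lowest mean was at ZT8 in 30 of the 44, at ZT12 in 12 and at ZT4 in 2. Because the call used ZT12 and ZT16, no risen gene could be highest at ZT12 or lowest at ZT16, and these orders are given as a description. Most of these genes thus had a higher mean at ZT20 than at ZT16, as Npas2 did, while Arntl did not.

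The number of calls moved with single libraries, and the cause was not tested. Without the first ZT12 library no entry of 19159 was called by edgeR (1135 had an unadjusted p under 0.05), and without the second 29 were called. Without the first and the second ZT16 library 4 and 2 were called. Leaving out the first or the second library of another time gave 681 and 669 calls for ZT0, 23 and 23 for ZT4, 34 and 26 for ZT8, and 20 and 20 for ZT20. All 49 entries kept their sign in each of these fits. Npas2 and Smagp kept their call in 11 of the 12 fits and lost it without the first ZT12 library. Arntl lost its call without that library and without either ZT16 library.

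Metabolic gene groups lay below the median of all genes without single members passing the test. Of the 21 genes of cholesterol synthesis and uptake, all had a log2 fold change below 0, with a median of -0.26. This held with RLE size factors, with scaling to library totals and with the trend over gene length removed. Both ZT16 libraries lay below both ZT12 libraries in 18 of the 21, against 25.6% of all entries. None was called by edgeR or DESeq2, and 11 had an unadjusted p under 0.05. Nsdhl, a sterol dehydrogenase gene with the smallest p of the list, had 41.6 and 34.4 CPM at ZT12 and 29.9 and 26.6 CPM at ZT16 (log2 -0.42 ± 0.13, edgeR adjusted p = 0.225).

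The fasting and gluconeogenesis list had a median log2 fold change of -0.21, with 19 of 20 genes below 0. In it 13 were separated downward, against 25.6% of all entries. None was called, 6 had an unadjusted p under 0.05 in edgeR, and DESeq2 called none. Cpt2, an enzyme of mitochondrial fatty acid import, had 83.4 and 75.1 CPM at ZT12 and 65.4 and 64.5 CPM at ZT16 (log2 -0.29 ± 0.09, edgeR adjusted p = 0.228). Ppara, the nuclear receptor of the fasting response, had 282 and 278 CPM and then 235 and 233 CPM (log2 -0.26 ± 0.13). The fatty acid synthesis list had a median of -0.16 with 11 of 19 genes separated downward, and its Lpin1, a phosphatidate phosphatase gene, had a log2 fold change of -0.22 ± 0.07. None of these 19 was called by edgeR or DESeq2, and 5 had an unadjusted p under 0.05. Without the ZT0 libraries edgeR called 3 genes of the fasting list, among them Cpt2 and Ppara, Hsd17b7 of the cholesterol list and no gene of fatty acid synthesis.

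Bile acid genes had a median log2 fold change of -0.19 over 14 genes, 7 of them separated downward (25.6% of all entries). None was called by edgeR or DESeq2. In edgeR 1 of them was lower with an unadjusted p under 0.05, beside 5.57% of all entries. Abcc2, a canalicular export pump gene, had 174 and 167 CPM at ZT12 and 133 and 134 CPM at ZT16 (log2 -0.35 ± 0.13, edgeR adjusted p = 0.30). Of the 14 glycogen genes, Ppp1r3g, a regulatory subunit that steers protein phosphatase 1 to glycogen, stood apart with 16.3 and 16.9 CPM and then 7.47 and 5.51 CPM. Its log2 fold change of -1.36 ± 0.31 had an edgeR adjusted p of 0.0973, DESeq2 called it, and the list median was -0.06. Cytosolic ribosomal protein and ribosome biogenesis genes had a median of -0.15, with 12 of 20 separated downward. Rps6, of the small subunit, had 12 and 11.8 CPM and then 9.19 and 8.74 CPM (log2 -0.41 ± 0.16). The 19 genes of the xenobiotic list had a median of -0.15, with 8 above 0. Of its 3 members with an unadjusted p under 0.05 in edgeR, 2 were higher and 1 lower. The largest rise was at Cyp2c55 (log2 0.79 ± 0.29). The lower member, Nr1i3, encodes the receptor CAR and overlaps Tomm40l on the opposite strand. Nr1i3 had 34.3 and 32.1 CPM and then 27.1 and 23.6 CPM (log2 -0.39 ± 0.11).

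Repair and damage response genes showed no common direction. The 31 genes of nucleotide excision repair had a median log2 fold change of -0.03, with 15 above 0 and none called by edgeR (4 with an unadjusted p under 0.05). Rpa1, the large subunit of the single-strand binding protein RPA, had 73.3 and 79.2 CPM at ZT12 and 102 and 98.8 CPM at ZT16. Its log2 fold change was 0.39 ± 0.08 (edgeR adjusted p = 0.0838), and it was the 1 gene of the list that DESeq2 called. The 24 p53 targets had a median of -0.03, and Zmat3, an RNA-binding protein gene, had 68 and 71.3 CPM and then 97.2 and 85.4 CPM (log2 0.39 ± 0.09, edgeR adjusted p = 0.128). The 22 genes of platinum transport and thiol defence had a median of -0.06, with 16 below 0 and none called by edgeR. Of the 6 with an unadjusted p under 0.05, 4 were lower and 2 higher. The smallest p was that of Atp7a, a copper pump that also handles platinum drugs. Atp7a had 81.6 and 82.5 CPM and then 100 and 101 CPM (log2 0.30 ± 0.07, edgeR adjusted p = 0.147).

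The remaining lists of the liver's response to its surroundings were centred near 0, and none of their members was called by edgeR or DESeq2. The median log2 fold change was 0.04 for the 12 genes of insulin response, -0.02 for the 12 glucocorticoid targets and -0.09 for the 14 immediate early genes. It was -0.04 for the 14 heat shock genes and -0.06 for the 15 genes of endoplasmic reticulum stress. The members with the smallest p were Trib3 (-0.49), Errfi1 (0.35), Fosl2 (-0.23), Hspd1 (-0.19) and Hsp90b1 (-0.21). In this order of lists, 1, 2, 3, 0 and 0 members had an unadjusted p under 0.05.

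Over the 22 lists other than the clock lists, edgeR called 0 of 350 members tested, a share near the 0.263% called of all entries. DESeq2 called 2 of them, and 57 had an unadjusted p under 0.05, 43 lower and 14 higher. Of all entries 12.3% had such a p, 5.57% lower and 6.74% higher. The marker lists of cell types are given beside the metabolic lists, and none of their members was called by edgeR or DESeq2. Hepatocyte markers had a median log2 fold change of -0.17 with 11 of 20 separated downward (25.6% of all entries). Stellate and mesenchymal markers had a median of 0.32 with 6 of 11 separated upward (25.8% of all entries) and 1 downward. They summed to 95.2 and 109 CPM at ZT12 and 112 and 139 CPM at ZT16. Endothelial markers had a median of 0.16 and summed to 365 and 330 CPM and then 356 and 383 CPM, and immune markers had a median of 0.20 and summed to 59.1 and 60.8 CPM and then 69.7 and 62 CPM. Cholangiocyte markers had a median of -0.06, kidney tubule markers of -0.19 and pancreatic acinar markers of 0.13. No marker of these lists was at 0 in all 4 libraries. Their part in the metabolic differences was not tested.

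**Figure D3:**
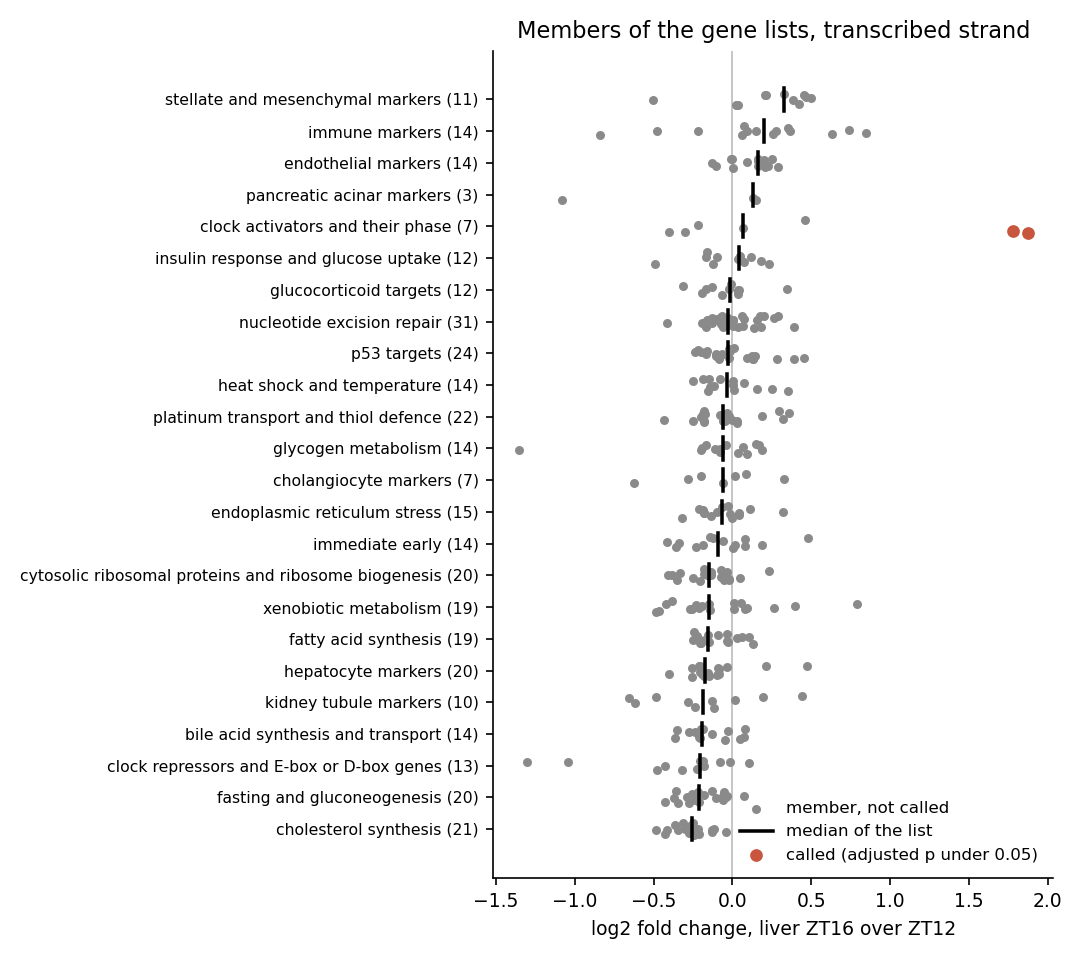
Log2 fold changes (ZT16 over ZT12, liver, transcribed strand) of the members of the 24 gene lists, ordered by list median (black bars) with the number of genes tested in brackets; red points are called. The 2 called genes are Npas2 and Arntl, and the cholesterol list has the lowest median, -0.26.

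Longer genes had higher values at ZT16 relative to ZT12. The median log2 fold change was -0.07 in 2566 genes under 5 kb and 0.09 in 2357 genes over 100 kb. No gene under 5 kb was called higher. Over 100 kb 18 were (0.764%), against 0.247% of all entries. The part of read number per gene in these shares was not tested. The 44 risen genes had a median length of 68.4 kb, against 21.9 kb for all entries. Each pair of a ZT16 and a ZT12 library had a median above 0 over 100 kb, from 0.06 to 0.12, and a median below 0 under 5 kb. The class medians rose with length in 3 of the 4 pairs and not in that of the 2 second libraries, where only the longest class lay above 0. With each library's trend over gene length removed, edgeR called 17 entries (0.0911%), 15 higher (0.0804%) and 2 lower (0.0107%), all among the 49. They included Npas2, Arntl, Pask, Smagp, Asap2, Dtx4, Map4k4, Dnmt3b and Fbxl19, and of the falls Mettl24 and Ngef. In kidney the class medians over the same hours ran from -0.06 to 0.08, and on the liver NTS from -0.01 to 0.03.

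**Figure D4:**
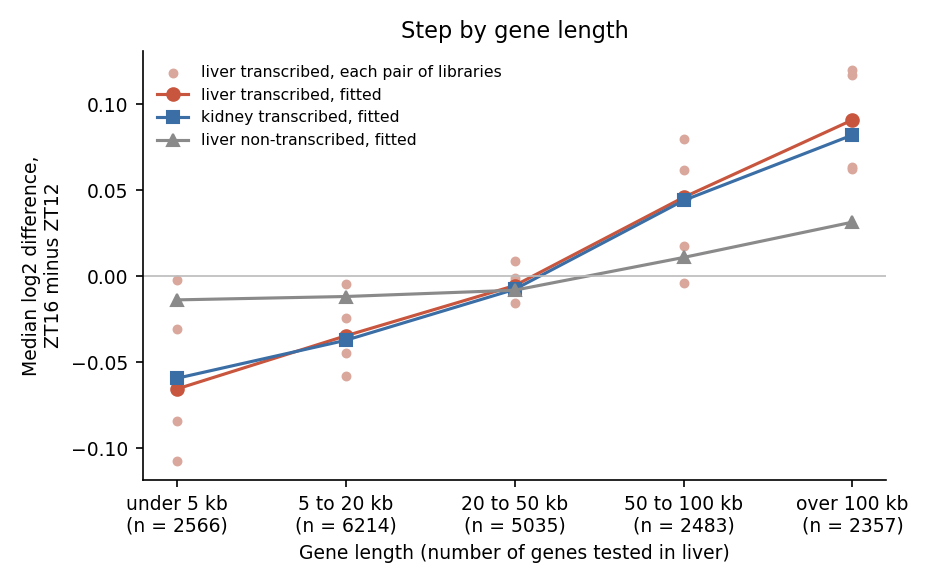
Median log2 difference between ZT16 and ZT12 in 5 classes of gene length, as fitted for the liver transcribed strand (red), the kidney transcribed strand (blue) and the liver non-transcribed strand (grey), with pale points for each pair of liver libraries. The liver transcribed strand runs from -0.07 in the shortest class to 0.09 in the longest.

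On the non-transcribed strand the same step gave 11 calls of 18061 entries (0.0609%), 3 higher (0.0166%) and 8 lower (0.0443%), none of them among the 44 genes that rose on the transcribed strand. Of those 44, 28 had an NTS log2 fold change above 0, with a median of 0.12 against 6.84e-04 for all, and 19 were separated upward (19.4% of all). The largest NTS rise was at Btbd10, a gene next to Arntl. The NTS reads of Btbd10 were 20.9 and 19.4 CPM at ZT12 and 72.1 and 68.7 CPM at ZT16 (log2 1.81 ± 0.21, edgeR adjusted p = 7.61e-05), while its own transcribed strand had a log2 fold change of 0.49 ± 0.15. The 3′ end of Btbd10 faces that of Arntl at a distance of 1.517 kb, and the NTS of Btbd10 is the strand that is transcribed in Arntl.

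Some other NTS calls lay beside or within genes with changes of the same sign on the opposite strand. The entry 4930549C15Rik lies wholly within Rnf144a, on the other strand, and had an NTS log2 fold change of 1.05 ± 0.18, beside 0.99 ± 0.12 on the transcribed strand of Rnf144a. Lyrm4, a gene of iron-sulphur cluster assembly, had NTS reads of 367 and 450 CPM and then 159 and 137 CPM (log2 -1.47 ± 0.25, edgeR adjusted p = 0.0112), and faces Ppp1r3g at 8.408 kb. Gm11346 lies within Fam65b and had an NTS log2 fold change of -1.45 ± 0.22, beside -1.31 ± 0.26 on the transcribed strand of an entry of Fam65b. Triobp (-0.92 ± 0.18) and Wdfy4 (-1.36 ± 0.22) overlap Gm10865 and Lrrc18, whose transcribed strands had log2 fold changes of -1.09 ± 0.31 and -0.57 ± 0.37. The genes facing these falls were not called by edgeR, and the change of Lrrc18 was smaller than that of Wdfy4. The facing genes of the other calls were near 0 or of the other sign on their transcribed strand. Srcin1 (0.98 ± 0.17) faces Arhgap23 (0.07 ± 0.10), She (-1.15 ± 0.22) faces Il6ra (-0.11 ± 0.10), and 4833412C05Rik (-1.49 ± 0.27) faces Ttc23 (-0.11 ± 0.08). 1110034G24Rik (-0.97 ± 0.17) faces Trmt6 (0.31 ± 0.10), and the entry listed as Ren2 (-1.41 ± 0.25), a renin gene, faces Sox13 (0.05 ± 0.10). Without the first or the second ZT16 library 1 and 2 NTS entries were called, and without the first ZT12 library 1.

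The change in the ratio of the strands was called at 6 of 20271 entries (0.0296%), 5 of them towards the transcribed strand (0.0247%) and 1 away from it (0.00493%). All entries as a whole were shifted the same way, with a median log2 change of 0.06 and 57.3% above 0. An unadjusted p under 0.05 in edgeR was held by 1043 entries towards the transcribed strand and 359 away from it. Arntl (log2 1.89 ± 0.24, edgeR adjusted p = 0.000261) and Npas2 (1.80 ± 0.24, adjusted p = 0.000261) led, since their NTS reads had log2 fold changes of -0.05 ± 0.16 and 0.11 ± 0.18. The others were Pold1, the catalytic subunit gene of DNA polymerase δ (1.87 ± 0.36), Mapk15, an atypical kinase gene (1.32 ± 0.23), and Tjp3, a tight junction scaffold gene (1.24 ± 0.22). Btbd10 had the opposite sign (-1.28 ± 0.24). Pold1 had 22.5 and 18.8 CPM on the transcribed strand at ZT12 and 30.3 and 38.9 CPM at ZT16, and its ratio also carries an NTS log2 fold change of -1.04 ± 0.31. Without the first ZT12 library the ratio was called at 2 entries, and without the first and the second ZT16 library at 1 and 3.

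The same hours in kidney gave 2 calls of 19277 entries (0.0104%), Npas2 and Arntl. In kidney Npas2 had 35.8 and 33.2 CPM at ZT12 and 69.3 and 91.7 CPM at ZT16 (log2 1.23 ± 0.12, edgeR adjusted p = 0.00115). Arntl had 134 and 85.8 CPM and then 258 and 263 CPM (log2 1.24 ± 0.17, edgeR adjusted p = 0.0377). Neither gene had libraries that overlapped between the times in kidney. Same-numbered kidney libraries deviated together, and with the replicate number as a block edgeR called 123 entries (0.638%), 109 higher (0.565%) and 14 lower (0.0726%). These held both genes (log2 1.23 ± 0.11 for Npas2 and 1.26 ± 0.12 for Arntl) and 10 of the 44 genes that rose in liver, all higher. The others of the 10 were Fbxl19, Gstcd, Igf2bp2, Ttc13, Ttll12, Wdr8, Wrb and Zbtb40, with kidney log2 fold changes of 0.34 to 0.62. Of the 44 genes that rose in liver, 43 had a kidney log2 fold change above 0, with a median of 0.27, against 47.8% and -0.01 for all entries. In 36 of them both kidney ZT16 libraries lay above both ZT12 libraries (21.3% of all entries). Gas7 was the exception in sign (-0.01 ± 0.15). Without the second kidney ZT12 library no kidney entry was called by edgeR (435 had an unadjusted p under 0.05), and without the first or the second kidney ZT16 library 1 was.

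A test of the difference between the tissues called none of 19702 entries (edgeR, 910 with an unadjusted p under 0.05, smallest adjusted p = 0.164). The liver change was the larger in 43 of the 44 risen genes and had an unadjusted p under 0.05 in 28, but these genes were chosen on their liver change. The smallest p belonged to Dnmt3b, whose log2 change was larger in liver by 0.74 ± 0.12. Smagp had 79.7 and 81 CPM and then 89.7 and 85.1 CPM in kidney, and its liver change was larger by 1.00 ± 0.17 (edgeR adjusted p = 0.222). Npas2 and Arntl had tissue differences of 0.67 ± 0.22 and 0.55 ± 0.29. With the replicate number as a block within each tissue, edgeR called 2 entries, Smagp (larger in liver by 1.00 ± 0.12, adjusted p = 0.0105) and Gatsl2 (0.75 ± 0.11, adjusted p = 0.0242), the latter chosen after its values were seen. For Mettl24 the kidney libraries had 81.3 and 58.7 CPM and then 74.7 and 66.2 CPM, and the liver change was lower by 1.34 on the log2 scale (SE 0.35, edgeR adjusted p = 0.647). Without the second liver ZT12 library 2 entries were called.

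**Figure D5:**
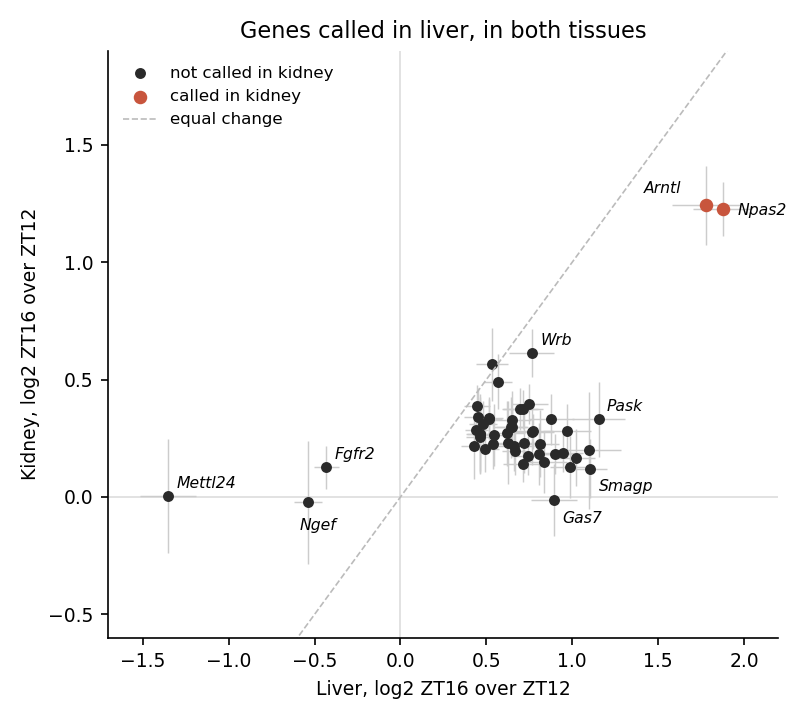
Log2 fold changes (ZT16 over ZT12) with standard errors of the 49 entries called in liver (horizontal axis) and their values in kidney (vertical axis); the dashed line marks equal change. Npas2 and Arntl, in red, are called in kidney too, in the fit without a replicate block, at 1.23 and 1.24, and the other risen genes lie below 0.7 there.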

How the data were processed

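XR-seq reads on the transcribed and non-transcribed strand of each gene were measured in 24 mouse libraries, 12 of liver. Per the file headers, the deposited tables give whole-number read counts per gene and strand with the matching RPKM values, and the reads were placed on mm10 per the submitters' processing notes. Which aligner and counter made them is not given in the sources used here. Deposited RPKM values served only to recover library totals. Of 25239 entries, the 882 with no symbol (2.76% of liver transcribed-strand reads) were left out. Deposited tables of downsampled kidney reads were not used.

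The quasi-likelihood test of edgeR 4.0.16 in R 4.3.3 (TMM, filterByExpr, 1 mean per time) compared ZT16 with ZT12, with the spread taken from all 12 libraries of a tissue. P-values were adjusted by Benjamini-Hochberg over all entries tested, with a threshold of 0.05. The strand ratio was fitted to both strands with the library as a block, and the tissue difference to all 24 libraries. The scripts were tested on simulated data. In kidney, deviations of same-numbered libraries correlated by more than 0.1 in 15 of 15 pairs of times (0.14 to 0.54 over 14791 genes), a check made after the kidney results were known, so values with the replicate block stand beside those results; the labels name no source of this pairing. DESeq2 1.42.0, RLE factors, no filter, scaling to library totals, removal of the length trend, a replicate block, genes without overlap, the 4 libraries alone, and fits without single libraries or without ZT0 were tried as alternatives. Total genic reads of the 4 libraries set the depth given in the report, and with 2 libraries a time the precision is limited by their number.

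Genes named are up to 12 of the largest called rises and falls with at least 20 reads on average and times that do not overlap, all clock list members, the member with the smallest p of each other list, and the largest calls of the other tests, up to 5 each way. Others are said to be chosen after their values were seen, except list members given beside their list as examples. The comparison, its members and the lists were chosen with earlier results of these data known. Promoters came from the RefSeq table, which also matched 24110 of the symbols. Overlapping genes share reads between one's transcribed and the other's non-transcribed strand. Some genes of the lists and of the called set are not reported here.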

Additional observations from a re-analysis of the deposited data

How the results depend on the processing

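For the transcribed strand in liver, edgeR's 49 calls became 132 with no filter on low counts, 885 with only the 4 libraries of ZT12 and ZT16, 81 with scaling to library totals, 17 with the length trend removed, 715 with both ZT0 libraries left out (chosen after seeing the data) and 281 with DESeq2. RLE factors gave 38 and genes that overlap no other gave 49. Leaving out 1 library gave 0 to 681 calls. The NTS calls, 11, became 111 with no filter and 79 without ZT0, and ran from 1 to 12 without single libraries. The 6 calls of the strand ratio became 35 with TMM over all strand columns and 89 without ZT0, and ran from 1 to 8. The kidney calls, 2, became 5 with no filter and ran from 0 to 3, and the tissue difference, 0, ran from 0 to 2. The cause of these shifts was not tested. All 49 entries kept their sign wherever they were fitted, which their lack of overlap between the times largely fixed beforehand. Without single libraries the sign of uncalled values turned for Cry1 (-0.037 to 0.19), Hlf (-0.12 to 0.085), Bhlhe40 (-0.037 to 0.23) and, on the transcribed strand, 4930549C15Rik (-0.24 to 0.99) and 4833412C05Rik (-0.16 to 0.81). Genes with few reads and 2 libraries a time limit what could be called.

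Whether the replicate numbers pair the liver libraries was not settled. Deviations of same-numbered liver libraries correlated by more than 0.1 in 8 of 15 pairs of times (-0.19 to 0.42 over 14099 genes). The correlation was 0.07 for ZT12 with ZT16. With the replicate number as a block, edgeR called 78 entries on the transcribed strand, 27 with the block and the length trend removed, 20 on the NTS, 96 for the strand ratio, 123 in kidney (added after seeing the data, with both calls of the fit without the block among them) and 2 for the tissue difference.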

Other observations

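With both ZT0 libraries left out, an alternative chosen after seeing the data, edgeR called further genes that had not passed in the fit to 12 liver libraries. Zfp354c, a zinc finger gene, had 3.17 and 5.23 CPM at ZT12 and 11.5 and 14.5 CPM at ZT16 (log2 1.58 ± 0.24, edgeR adjusted p = 0.00523 without ZT0). Fancg, of the Fanconi anaemia core complex that acts on DNA crosslinks, had 3.91 and 4.77 CPM and then 9.25 and 11.4 CPM (log2 1.22 ± 0.21, edgeR adjusted p = 0.00872 without ZT0). Both genes had higher values in both ZT16 libraries.

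Among the genes called lower without ZT0 but not with all 12 libraries, Aldoc, which encodes an aldolase of glycolysis, had 6.42 and 3.16 CPM at ZT12 and 1.72 CPM in both ZT16 libraries (log2 -1.41 ± 0.32, edgeR adjusted p = 0.0301 without ZT0). Car1, a carbonic anhydrase gene of red blood cells, had 22.2 and 17.6 CPM and then 10.2 and 5.17 CPM (log2 -1.37). The times did not overlap in either gene. These genes were named after their values were seen.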
